A study of Mus musculus with 2 samples.

Results

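The genes described here code for the proteins of the cytosolic ribosome. They were chosen by symbol: names that start with Rpl or Rps and a digit, with Rplp0, Rplp1, Rplp2 and Rpsa, and without Rps27a, the Rps6k kinases and symbols marked -ps. Of the 32285 genes listed, 85 had such a symbol, and all 85 had the required 30 unique molecular identifiers (UMIs, each standing for 1 captured RNA molecule) in the cells of both libraries together. The large subunit gave 52 of them and the small subunit 32. The remaining one, Rps19bp1, codes for a protein that binds Rps19 and is not itself a ribosomal protein. All 85 are annotated as protein coding, and they lie on 19 chromosomes, with 4 on the X (Rpl10, Rpl36a, Rpl39 and Rps4x). Their UMIs in called cells ran from 1370 for Rpl10l to 467637 for Rps14, and 72 of the 85 genes had over 100000.

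The study compared whole testis of male C57BL/6 mice at 13 days of age, with 1 single-cell library per genotype. The control was Psma7 F/+, with a floxed and a normal copy of Psma7, a subunit of the proteasome core, and its label lists no Cre. The knockout was Psma7 F/-;Stra8-Cre KI/+, with a floxed copy, a deleted copy and a Cre knocked in at Stra8, a gene of germ cells. The deleted copy is carried by every cell of the knockout animal, so that its somatic cells differ from those of the control in genotype too. The labels do not say how many animals a library holds. With 1 library per genotype no difference between genotypes could be tested: genotype, animal and library cannot be told apart, and the intervals below cover the counting of UMIs only.

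Ribosomal proteins are made in near equal numbers and assembled with ribosomal RNA in the nucleolus, then exported as a small and a large subunit. Their mRNAs are abundant and short, and many begin with a run of pyrimidines (C or T), the TOP motif, through which their translation is set together by mTORC1. Germ cells silence the X chromosome in meiosis, and several X-linked ribosomal protein genes have autosomal copies that are used in the male germ line, Rpl39l for Rpl39 and Rpl10l for Rpl10 among them.

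The coding sequences of Rpl39 (ENSMUSG00000079641, X chromosome, minus strand, 37082520 to 37085402) and Rpl39l (ENSMUSG00000039209, chromosome 16, plus strand, 10170226 to 10174911; both from GENCODE M21) are shown because the variant's part in this pair ranged most widely over the cell classes. Each has 153 bases without the stop codon, of which the 23 in capitals differ, and the longest stretch without a difference was 38 bases.
Rpl39: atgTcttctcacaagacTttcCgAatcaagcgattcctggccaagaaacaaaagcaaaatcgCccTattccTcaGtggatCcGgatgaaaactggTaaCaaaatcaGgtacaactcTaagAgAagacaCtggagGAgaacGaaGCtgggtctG
Rpl39l: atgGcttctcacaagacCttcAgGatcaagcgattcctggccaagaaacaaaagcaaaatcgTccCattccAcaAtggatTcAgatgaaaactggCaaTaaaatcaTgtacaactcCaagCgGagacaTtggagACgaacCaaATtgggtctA

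The bases around the transcription start are shown for genes with and without a pyrimidine run, since the run is the known mark of the family. Each window has 30 bases, 12 of them before the start listed by RefSeq (GRCm38.p6), and capitals mark a run of at least 6 consecutive C or T bases, read on the gene's own strand, that covers the start or begins within 5 bases of it. Rpl7a lies at chr2:26910795-26910824 on the plus strand, Rpl27a at chr7:109519183-109519212 on the plus strand, Rpl35 at chr2:39005114-39005143 on the minus strand and Rpl38 at chr11:114668568-114668597 on the plus strand. The windows without such a run are those of Rps28 (chr17:33824545-33824574, minus strand), Rpl39 (chrX:37085205-37085234, minus strand), Rpl39l (chr16:10170216-10170245, plus strand) and Rps4x (chrX:102189374-102189403, minus strand).
Rpl7a: CCCTCTTCTTTCTTTCTCCagcagccgagc
Rpl27a: ttcgtgagCTCCTCCCTTTTCCCTTTCTgc
Rpl35: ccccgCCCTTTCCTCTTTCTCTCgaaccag
Rpl38: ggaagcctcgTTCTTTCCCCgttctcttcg
Rps28: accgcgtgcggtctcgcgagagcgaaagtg
Rpl39: aagctccgcctctagcgacttcttctaatc
Rpl39l: ccaggcctttccggatttccggtggtcgcc
Rps4x: aggctgggcggagcaacccaggctccagcg
A run was present in 27 of the 66 ribosomal protein genes with a promoter in the RefSeq table (40.9%) and in 4298 of all 27025 genes there (15.9%). A window without capitals has no such run at the listed start; runs farther from it, as in the windows of Rpl39 and Rpl39l, were not counted, and the result depends on where the start is listed.

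After filtering and removal of doublets, 10737 control and 10589 knockout cells were left, with a median of 8046 and 5395 UMIs. The libraries shared 29 barcodes among called cells. Cells were grouped into classes by marker genes, and a class name means that its clusters resemble that type. Psma7, the check on the labels, was lower in the knockout in every class compared: 94.1 against 245 UMIs in 1000000 of the class (CPM) in undifferentiated spermatogonia, 52.6 against 301 in differentiating spermatogonia and 86.6 against 237 in Sertoli cells. Which exons are floxed is not given in the sources used here, so the 3′ tags counted may lie outside the deleted part. Sertoli cells numbered 3846 in the control and 6534 in the knockout, differentiating spermatogonia 1924 and 112, and undifferentiated spermatogonia 511 and 289. Germ cells entering meiosis numbered 1346 and 0, so that they are described in the control alone.

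In the control, Sertoli cells had the lowest share of ribosomal protein mRNA and Leydig cells the highest. The 85 genes together took 2.92% of the UMIs of Sertoli cells, 7.79% in germ cells entering meiosis, 8.49% in differentiating and 8.66% in undifferentiated spermatogonia. Macrophages had 9.44%, endothelial cells 10.6%, peritubular myoid cells 11.7%, interstitial stromal cells 12.3% and Leydig cells, which make testosterone, 13.3%. Counting error was small beside these gaps: the widest interval of a control class, that of macrophages, ran from 9.39% to 9.49%. Single cells spread far more, with the middle 50% of control undifferentiated spermatogonia between 4.33% and 11.0% and of control Sertoli cells between 1.38% and 3.70%. Barcodes of 10 to 100 UMIs, which hold mostly RNA free in the suspension, had 11.9% in the control and 11.6% in the knockout. Free RNA could have given at most from 2.58% (control germ cells entering meiosis) to 15.6% (control macrophages) of the UMIs of a class, with 4.88% in control Sertoli cells and 6.27% in control undifferentiated spermatogonia.

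**Figure D1:**
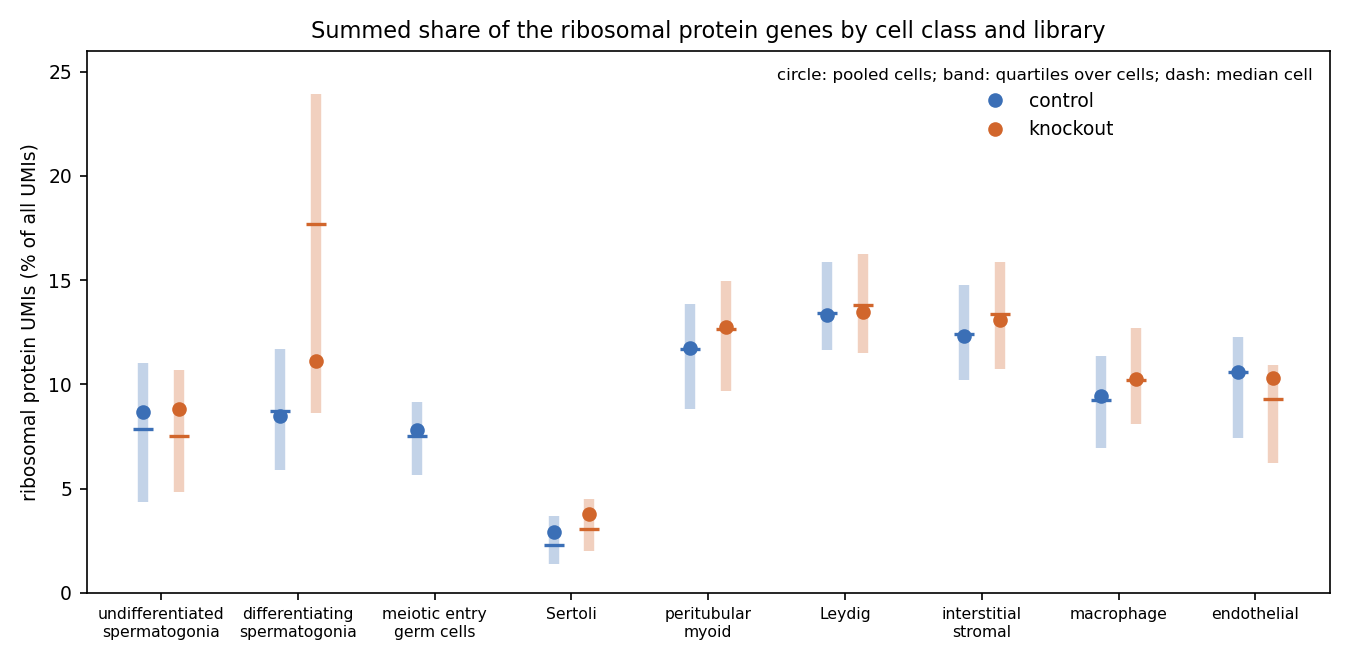
UMIs from the ribosomal protein genes (percent of all UMIs) by cell class in the control and the knockout library: circles are the pooled cells, bands the quartiles over cells and dashes the median cell. Sertoli cells lie lowest, at 2.92% and 3.75%, and Leydig cells highest, at 13.3% and 13.5%.

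In undifferentiated spermatogonia, which include the stem cells of the germ line, the summed share hardly differed between the libraries. It was 8.66% (95% interval 8.64% to 8.68%) in the control and 8.83% (8.80% to 8.86%) in the knockout, a log2 ratio of knockout over control of 0.029, below the 0.05 of the median gene. A gene is called higher or lower from here on when its log2 ratio was at least 0.32 from 0 in that direction. Of the 85 genes 10 were higher in the knockout, beside 27.0% of all genes tested in the class, and 1 was lower, beside 17.8%. Both counts were below the background. The middle 50% of cells ran from 4.33% to 11.0% in the control and from 4.83% to 10.7% in the knockout, so that the cells of the libraries overlapped almost fully. Median depth was alike, with 13369 and 13338 UMIs per cell, and mitochondrial UMIs made up 7.78% and 6.13%. The sign depended on the cells taken: in those of 5000 to 10000 UMIs (104 and 59 cells) the shares were 8.27% and 7.28%, a log2 ratio of -0.18. Of the 83 genes tested in that band 2 were higher, beside 27.1% of all genes, and 23 lower, beside 23.0%. With at most 10% mitochondrial UMIs the ratio was -0.059.

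In differentiating spermatogonia the share was 8.49% in the control and 11.1% in the knockout, a log2 ratio of 0.39, with the median gene at 0.11. Here 50 of 85 genes were higher by that measure, against 37.4% of all genes, and 1 was lower, against 20.1%. The 112 knockout cells of this class had a median of 5524.5 UMIs against 12570.5 in the control. Different clusters held the class in the libraries. Of the control cells, 941 were in cluster 8, which had 5 knockout cells, 755 in cluster 11 and 228 in cluster 20. Of the knockout cells, 57 were in cluster 20, whose median was under 2000 UMIs in both libraries, and 50 in cluster 11. These clusters also passed the marker minimum of other stages. Cluster 8 passed 11 markers of differentiating spermatogonia and 12 of meiotic entry, and cluster 20 passed 4 and 3. Cluster 11 passed 9 and 7, with 4 of undifferentiated spermatogonia and 3 of zygotene to pachytene spermatocytes. The share was 20.5% and 23.8% in cluster 20, and 7.98% and 9.44% in cluster 11. Without cluster 20, an alternative chosen after seeing the data, the log2 ratio was 0.19, with 20 genes higher, below the 39.3% of all genes, and 3 lower, against 17.9%. The ratio was 1.02 with at most 10% mitochondrial UMIs (1040 and 51 cells) and 1.28 at clustering resolution 2 (1251 and 62 cells). In these settings other germ cells were named zygotene to pachytene spermatocytes, 464 control and 37 knockout cells in the first and 777 and 50 in the second. The main setting had 0 cells of that name, so these ratios do not compare the same cells as the main one. Within cluster 11 the log2 ratio was 0.24, with 32 genes higher, against 30.1% of all genes, and 0 lower, against 17.2%. The control cells of that cluster had a median of 18274 UMIs and 8.05% mitochondrial UMIs, the knockout cells 22221.5 UMIs and 5.28%. The part of depth and cluster makeup in the pooled difference was not tested further.

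In Sertoli cells, the nurse cells of the seminiferous tubule, the share was 2.92% in the control and 3.75% in the knockout, a log2 ratio of 0.36 with the median gene at 0.03. Higher were 44 of 85 genes, against 29.5% of all genes, and 2 were lower, Rpl39l and Rpl10l, against 19.0%. The class again lay in different clusters: most control cells were in clusters 4, 5 and 10 (1090, 1144 and 759 cells) and most knockout cells in clusters 0, 1 and 7 (2746, 1705 and 890 cells). Compared within a cluster, the libraries were closer. The share in cluster 0 was 3.57% in the control and 3.50% in the knockout, in cluster 1 it was 3.30% and 3.32%, and in cluster 7 it was 2.32% and 2.40%. Over all 21 clusters with at least 50 cells in both libraries the log2 ratio was above 0 in 18. Some of these ratios were very small, such as 0.00088 in stromal cluster 23 and 0.0066 in cluster 1. The clusters come from the same pair of libraries and are not independent. Over the 8 Sertoli clusters with at least 50 cells in both libraries the log2 ratio ran from -0.29 to 0.22 and was above 0 in 6, so that in none of them did it reach the 0.36 of the pooled class. In cells of 5000 to 10000 UMIs it was 0.54, with 2.32% in the control and 3.37% in the knockout, and with 10% of the UMIs subtracted as free RNA 0.58. In cells of 1000 to 2000 UMIs (264 and 570 cells) the order turned, with 5.44% in the control and 4.67% in the knockout. The knockout was higher in the other bands, with 2.69% and 3.40% at 2000 to 5000 UMIs. The shares were 2.97% and 3.78% at 10000 to 20000 UMIs and 3.60% and 4.71% at 20000 or more.

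The other somatic classes differed less. The log2 ratio was 0.12 in peritubular myoid cells and in macrophages, 0.09 in interstitial stromal cells, 0.015 in Leydig cells and -0.04 in endothelial cells. In Leydig cells 0 of 82 genes tested were higher or lower, beside 13.6% of all genes higher and 12.4% lower. In myoid cells 4 of 83 were higher and 3 lower (13.1% and 20.3% of all genes), in stromal cells 4 and 2 of 84 (14.2% and 8.46%), in macrophages 7 and 0 of 83 (16.3% and 20.6%), and in endothelial cells 3 and 3 of 82 (20.0% and 17.0%). None of these counts was above the background of its class. Over all cells the share was 7.91% and 8.73%, with 18 genes higher and 7 lower (30.9% and 37.7% of all genes), values that also carry the different mixes of cells. In cells of 5000 to 10000 UMIs the order over all cells turned, with 7.78% and 6.86%.

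The nuclear RNA Malat1, whose share is a common sign of damaged cells, stood beside these values. In Sertoli cells it stood at 13584 CPM in control and 19919 CPM in knockout, 2955 and 4491 in undifferentiated spermatogonia and 1489 and 1900 in differentiating spermatogonia. In Leydig and myoid cells it was nearly level, at 18966 and 19980 and at 20985 and 21417. Its part in the ribosomal protein shares was not tested.

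**Figure D2:**
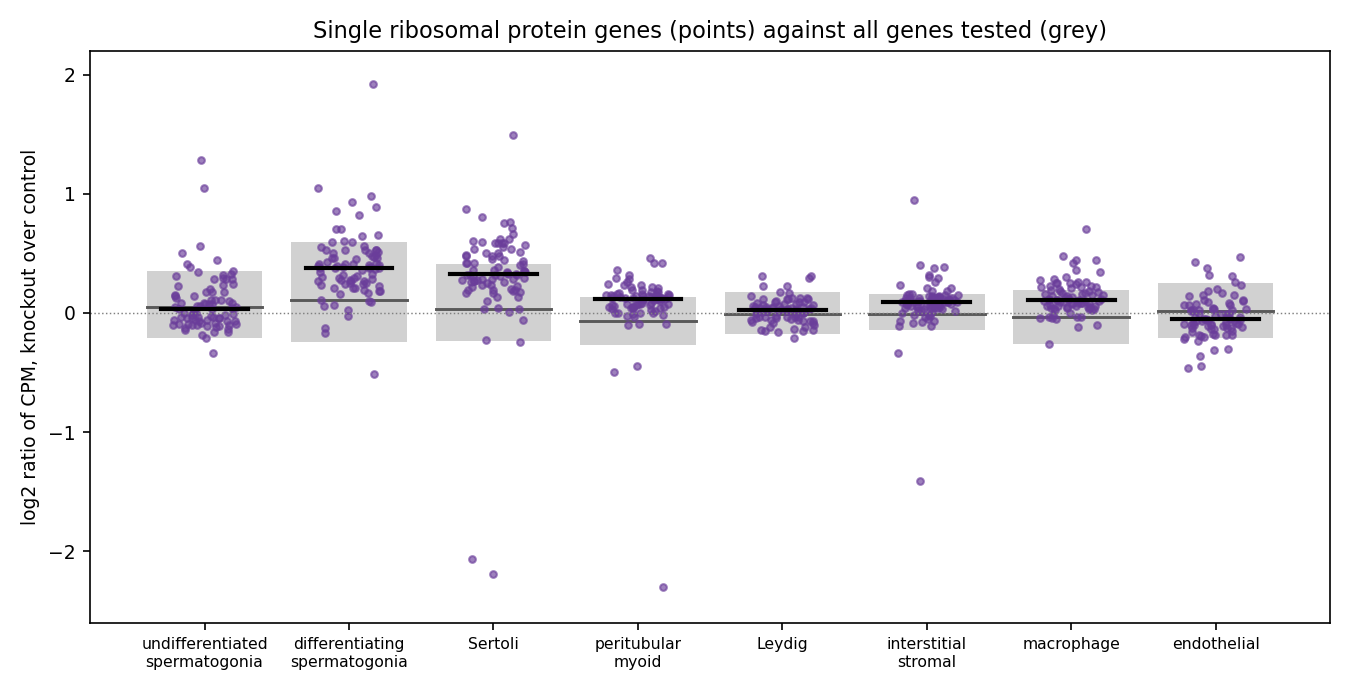
Log2 ratio of CPM, knockout over control, for each ribosomal protein gene with at least 30 UMIs in the class (points, black line at their median), with the quartiles and median of all genes tested in grey. The points centre on 0.029 in undifferentiated spermatogonia, 0.38 in differentiating spermatogonia and 0.33 in Sertoli cells.

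**Figure D3:**
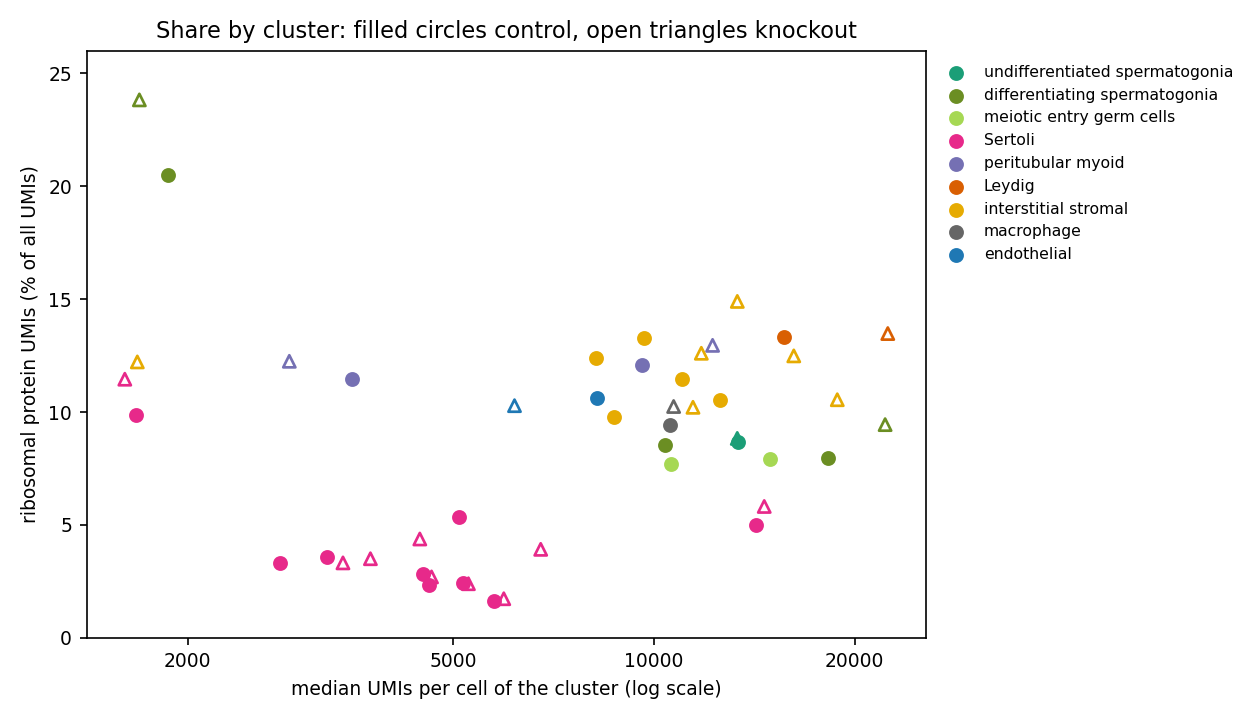
UMIs from the ribosomal protein genes (percent of all UMIs) in each cluster against the median UMIs per cell of the cluster (log scale), with filled circles for the control, open triangles for the knockout and colours for the cell class. Most Sertoli clusters lie lowest, from 1.61% in the control, and the shallow differentiating cluster 20 lies highest, at 20.5% and 23.8%.

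The subunits kept a steady proportion. UMIs of small over large subunit genes stood at 0.826 in control and 0.831 in knockout undifferentiated spermatogonia, 0.767 and 0.770 in Sertoli cells, and 0.829 and 0.867 in differentiating spermatogonia. The stalk proteins that recruit elongation factors, Rplp0, Rplp1 and Rplp2, had log2 ratios of -0.016, -0.06 and -0.04 in undifferentiated spermatogonia and 0.53, 0.21 and 0.29 in differentiating spermatogonia. Rpsa, a small subunit protein also known as a laminin receptor, had log2 ratios of 0.34 and 0.86 in these classes, with 1789 (control) and 2265 CPM (knockout) in undifferentiated spermatogonia and 1375 and 2494 CPM in differentiating spermatogonia.

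Rpl5 and Rpl11 bind and restrain Mdm2 when ribosome assembly fails, which stabilises p53. In undifferentiated spermatogonia Rpl5 was at 796 and 738 CPM (control, then knockout), and Rpl11 at 756 and 733 CPM. Neither gene was called higher or lower. Rps6, the target of the S6 kinases, had a log2 ratio of -0.06 there, Rps14, whose loss underlies a form of myelodysplasia, -0.18, and Rps19, the gene most often mutated in Diamond-Blackfan anaemia, 0.06. In Sertoli cells Rps6 was at 0.26, Rps14 at 0.19 and Rps19 at 0.59. Rps19bp1, the gene that codes for no ribosomal protein, was at 30.2 and 35.6 CPM in undifferentiated spermatogonia, a log2 ratio of 0.24 whose interval (-0.06 to 0.53) includes 0.

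Within undifferentiated spermatogonia the genes did not move as 1 block. Lowest was Rpl7, at 711 and 563 CPM (log2 ratio -0.34), then Rps15a at -0.21 and Rps14 at -0.18. Highest among genes with at least 100 UMIs was Rpl39, at 101 and 209 CPM (1.05, interval 0.91 to 1.19), then Rps28, at 979 and 1443 CPM (0.56), and Rpl38, at 490 and 694 CPM (0.50). Among the other genes called higher were Rps29, Rpl31, Rpl36, Rpsa, Rpl35 and Rpl3l. Free RNA could have given at most 42.8 of the 101 CPM of Rpl39 in the control and 54.1 of the 209 CPM in the knockout.

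Across the 8 classes compared, 18 of the 85 genes had a log2 ratio above 0 in each, and 1, Rps27l, in none. Of all 8024 genes with at least 30 UMIs in each class, 82 of the ribosomal protein genes among them, 1.97% were above 0 in each class and 2.95% in none. The 8 comparisons come from the same pair of libraries and are not independent. Rpl37, Rpl38, Rps28 and Rps29, which code for small proteins, were among the 18, as were genes of longer proteins such as Rpl6 and Rpsa. Rpl38, a large subunit protein known for its part in the translation of Hox mRNAs, had log2 ratios from 0.26 to 0.93, Rps28 from 0.29 to 0.71 and Rps29 from 0.31 to 0.76. The 3 highest genes with at least 100 UMIs were Rpl38, Rps28 and Rps29 in Leydig and in stromal cells, Rpl37, Rpl38 and Rps29 in macrophages, and Rps28, Rps29 and Rpl39 in endothelial cells, where the summed share was lower in the knockout. They were Rpl10, Rps29 and Rps27rt in myoid cells, Rpl39, Rpl36 and Rpl3l in Sertoli cells, and Rpl10l, Rpl22l1 and Rps4x in differentiating spermatogonia. In undifferentiated spermatogonia the 29 genes with a coding sequence under 400 bases had a median log2 ratio of 0.11 and the 15 with at least 700 bases one of -0.06. In Sertoli cells these medians were 0.36 and 0.29, in differentiating spermatogonia 0.41 and 0.36, and in myoid cells both 0.13. Over all cells the order turned, with 0.063 for the short and 0.21 for the long genes. With the paralogues left out, the 26 genes with a pyrimidine run at the start and the 32 without both had a median of 0.05 in undifferentiated spermatogonia, 0.34 and 0.33 in Sertoli cells, and 0.10 and 0.21 over all cells.

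Rps27l, a variant of Rps27 known as a p53 target, went the other way. It was at 547 CPM in control and 384 CPM in knockout differentiating spermatogonia (log2 ratio -0.51), 181 and 154 CPM in Sertoli cells, 242 and 172 CPM in myoid cells, and 159 and 158 CPM in undifferentiated spermatogonia. Its part of the UMIs of the pair with Rps27 was 25.1% in control and 21.6% in knockout undifferentiated spermatogonia and 52.4% and 40.5% in differentiating spermatogonia. Within cluster 11 it was 52.1% and 45.9%. There Rps27l itself was at 394 and 367 CPM, and Rps27 at 362 and 432 CPM. Within the shallow cluster 20 Rps27l was at 1019 and 509 CPM. In cluster 8, almost all control, it was at 709 CPM, so that the pooled values of differentiating spermatogonia mix unlike clusters.

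The germ line copy Rpl39l gave most of the UMIs of its pair in spermatogonia and almost none in somatic cells. In undifferentiated spermatogonia it made up 74.8% of the pair in the control (interval 73.3% to 76.4%) and 59.0% in the knockout (56.9% to 61.0%). Rpl39l itself was level, at 301 CPM in both libraries, and the lower part came with the higher Rpl39. With free RNA subtracted the values were 83.2% and 65.8%. In differentiating spermatogonia Rpl39l made up 61.1% and 72.6%, but within cluster 11 it was 85.3% in the control and 78.2% in the knockout, and within cluster 20 69.0% and 62.7%, so that the pooled order was the reverse of that within both clusters. Cluster 8, almost all control, had 37.2%, and germ cells entering meiosis 27.4%.

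In Sertoli cells Rpl39l had 12.7 CPM in control and 2.78 CPM in knockout. Free RNA could have given up to 10.0 and 2.25 CPM of this, and the barcodes of 10 to 100 UMIs held 206 and 54.7 CPM, so that both levels stand close to what free RNA alone could have given. In knockout endothelial cells Rpl39l had 0 UMIs, which allows up to 3.29 CPM.

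**Figure D4:**
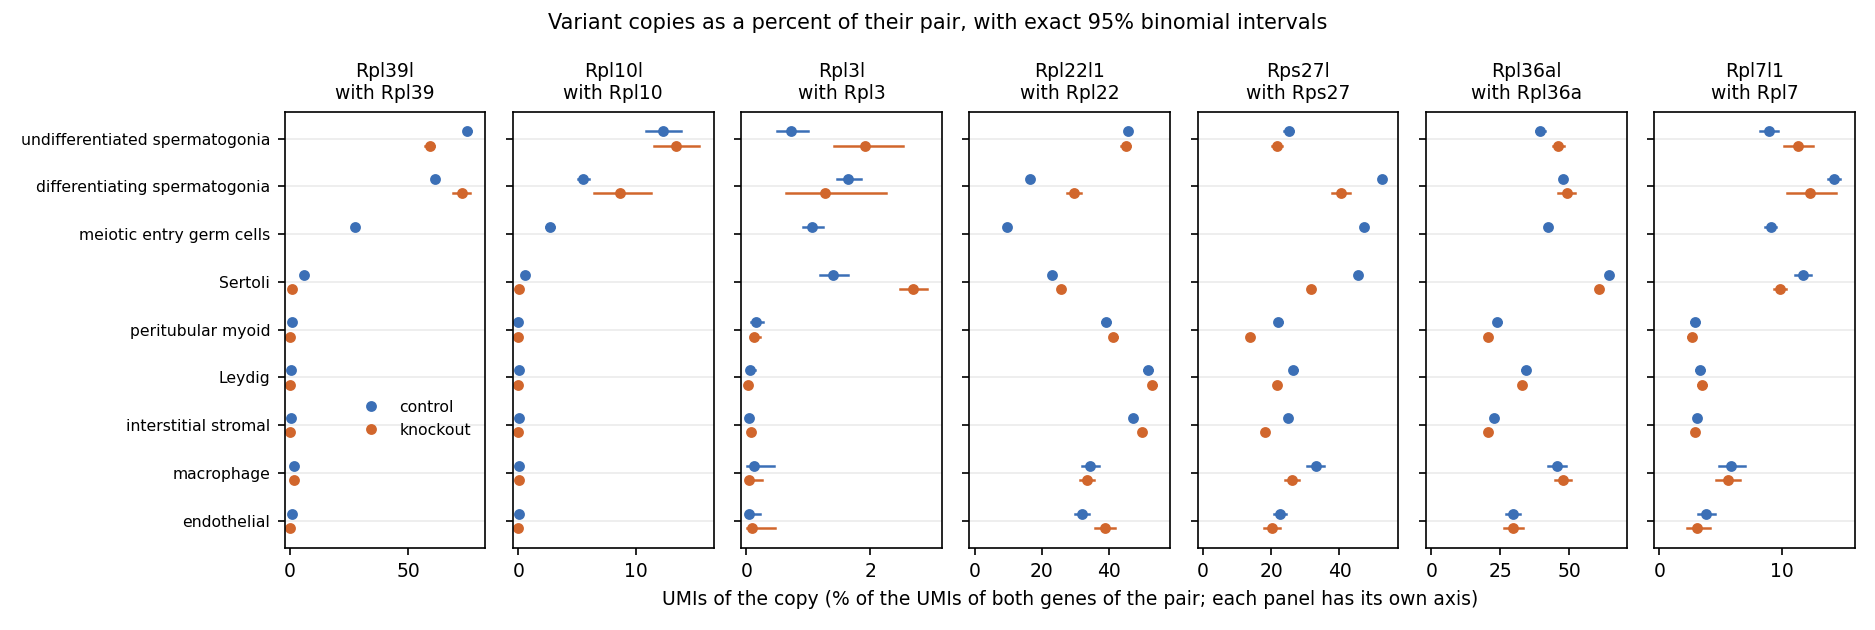
Percent of the UMIs of each gene pair that came from the variant copy, by cell class and library, with exact 95% binomial intervals and an axis of its own for each pair. Rpl39l lies at 74.8% in control and 59.0% in knockout undifferentiated spermatogonia and at 5.78% or less in the somatic classes.

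Rpl10l, on chromosome 12 (66283379 to 66284401, minus strand, GENCODE M21) and 84.7% identical to Rpl10 in its coding sequence, was also found mainly in spermatogonia, at far lower levels. It made up 12.3% of its pair in control undifferentiated spermatogonia and 13.4% in the knockout, with intervals that overlap (10.9% to 13.9% and 11.6% to 15.4%). In differentiating spermatogonia it was 5.56% and 8.66%, within cluster 11 9.50% and 9.07%, within cluster 20 4.82% and 7.58%, and in control cells entering meiosis 2.69%. Rpl3l, known as the form of Rpl3 in striated muscle, was rare everywhere. It had 34 UMIs in control and 48 in knockout undifferentiated spermatogonia (4.39 and 10.8 CPM), and 148 and 563 in Sertoli cells (5.08 and 14.4 CPM).

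Rpl22l1, a variant of Rpl22, had 578 CPM in control and 561 CPM in knockout undifferentiated spermatogonia, 45.7% and 45.0% of its pair. In differentiating spermatogonia it had 193 and 399 CPM (16.6% and 29.5%). Within cluster 11 the parts were 23.5% and 24.0%, and within the shallow cluster 20 they were 20.8% and 44.7%. Cluster 8, almost all control, had 10.0%. Rpl36al, the autosomal copy of Rpl36a, ran in the control from 22.6% of its pair in stromal cells to 64.3% in Sertoli cells. Near-identical copies elsewhere in the genome, such as Rps27rt for Rps27, could share reads with these genes in the authors' counting. Rpl7l1, a relative of Rpl7, ran from 2.86% in control myoid cells to 14.2% in control differentiating spermatogonia.

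The X-linked genes had the widest ranges over the control cell classes and were a small part of the ribosomal protein mRNA of germ cells. The 4 X-linked genes gave 0.953% of the ribosomal protein UMIs in control and 1.12% in knockout undifferentiated spermatogonia, 0.948% and 0.990% in differentiating spermatogonia, 2.41% and 2.89% in Sertoli cells and 6.60% and 6.79% in stromal cells. Over the control classes Rps4x had the widest range of the 80 genes with at least 100 UMIs in each class, 5.98 on the log2 scale, from 54.7 CPM in germ cells entering meiosis to 3442 CPM in stromal cells. Rpl39 followed at 3.99, Rpl10 at 3.70 and Rpl36a at 3.29, while the median range was 2.24 and the smallest that of Rps29, 1.19. In differentiating spermatogonia Rps4x had 58.1 CPM in the control, of which free RNA could have given up to 36.4, and 220 CPM in the knockout, up to 107. These pooled values mix unlike clusters. Rps4x was at 68.8 and 167 CPM within cluster 11 and at 262 and 630 CPM within the shallow cluster 20. In cluster 8, almost all control, Rps4x was at 35.4 CPM. All other X-linked genes together took 1.96% and 1.94% of the UMIs in undifferentiated spermatogonia and 2.02% and 1.89% in differentiating spermatogonia.

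Along the control germ cell stages the summed share was lower at meiotic entry, and less so than most genes. From undifferentiated to differentiating spermatogonia the log2 ratio was -0.03, with 12 genes higher and 11 lower (28.0% and 36.8% of all genes). Rps27l was 1.78 higher on the log2 scale and Rps4x (-1.76) and Rpl22l1 (-1.58) were lower. From differentiating spermatogonia to meiotic entry the log2 ratio was -0.13, with 12 higher and 28 lower (21.3% and 58.5% of all genes), and 73 of the 85 lay above the median gene, which was at -0.59. Rps2 was at 2598 and 935 CPM, Rps3 at 1031 and 501 CPM and Rpsa at 1375 and 771 CPM in these stages. In the other direction Rpl39 was at 127 and 354 CPM, Rps20 at 1078 and 2330 CPM and Rps27 at 496 and 884 CPM. From undifferentiated spermatogonia to meiotic entry 17 genes were higher and 29 lower (26.2% and 55.7% of all genes). The stages come from 1 library, so that these differences have no replicate either.

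**Figure D5:**
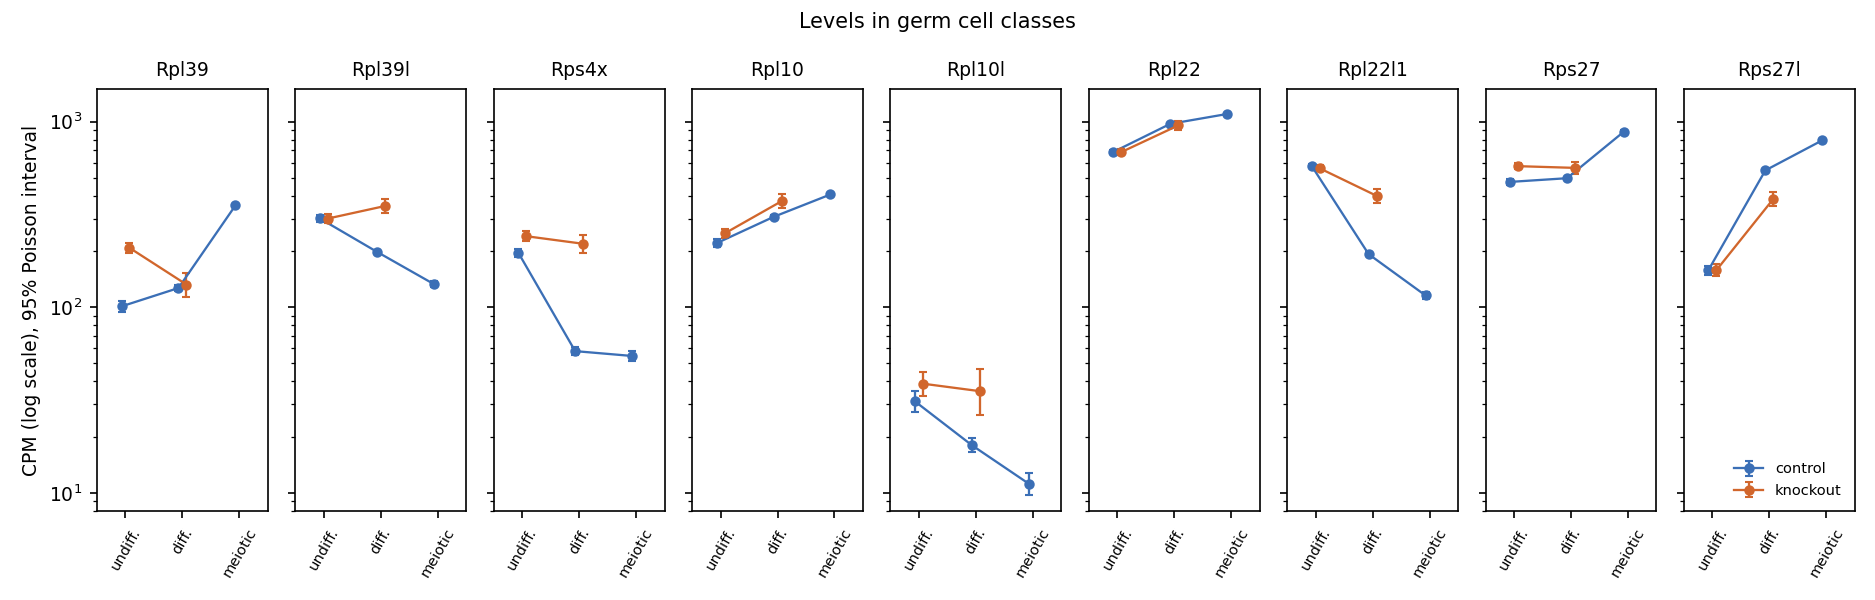
Levels (CPM, log scale, with 95% Poisson intervals) of 9 ribosomal protein genes in the germ cell classes of the control and the knockout; meiotic entry is shown for the control alone. In the control Rpl39l is at 301, 199 and 133 CPM along the stages, while Rpl39 is at 101, 127 and 354 CPM.

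Lists of related genes gave the setting. Of all genes tested, 27.0% were higher and 17.8% lower in undifferentiated spermatogonia, and 29.5% and 19.0% in Sertoli cells. In undifferentiated spermatogonia the proteins made as fusions with ubiquitin, with Rack1, had a median log2 ratio of -0.0086 over 4 genes, mitochondrial ribosomal proteins 0.06 over 78 (12 higher, 4 lower) and translation initiation factors -0.03 over 55 (1 higher, 3 lower). In Sertoli cells, where the cytosolic genes had a median of 0.33, the ubiquitin fusions and Rack1 were at 0.35 (2 higher, 0 lower), the initiation factors at -0.04 (4 higher, 6 lower), and the mitochondrial ribosomal proteins had 2 higher and 3 lower of 78. Mitochondrial ribosomal proteins are coded in the nucleus but serve the ribosome inside mitochondria. In differentiating spermatogonia the medians were 0.45 for the ubiquitin fusions and Rack1 and 0.11 for mitochondrial ribosomal proteins, the same as the median gene.

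Lists of factors that build ribosomes or work with them were also read in undifferentiated spermatogonia, where the median gene was at 0.05. There 27.0% of all genes were higher and 17.8% lower, and these lists are short. Ribosome biogenesis genes had a median log2 ratio of 0.04 over 48 (4 higher, 1 lower). The lower gene was Heatr1, a factor for transcription of ribosomal RNA, at 129 and 93.9 CPM. At the other end of this list Ltv1 was at 35.8 and 46.6 CPM. Elongation factors had -0.13 over 9 (0 higher, 3 lower). Eef2, which moves the ribosome along the mRNA, was at 473 and 346 CPM, and Eef2k, the kinase that inhibits it, at 41.9 and 21.1 CPM. Highest of these factors was Tpt1, at 940 and 989 CPM. Genes of mTORC1 and of the control of TOP mRNAs had -0.23 over 13 (1 higher, 4 lower), with Rptor, the scaffold of mTORC1, at 252 and 183 CPM. The higher gene was Rps6kb2, at 9.95 and 14.3 CPM.

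A list of 5 genes, Rpl5 and Rpl11 among them, was taken for the p53 response to failed ribosome assembly. Ribosome assembly itself was not measured, and the cause of any difference in these genes was not tested. In undifferentiated spermatogonia 1 was higher and 0 were lower, beside 27.0% and 17.8% of all genes. The higher gene was Cdkn1a, the cell cycle inhibitor p21, at 4.0 and 19.5 CPM (31 and 87 UMIs, log2 ratio 2.27, interval 1.68 to 2.92). Mdm2, which marks p53 for degradation, was at 108 and 128 CPM, and Trp53, which codes for p53, at 82.3 and 74.8 CPM.

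In Sertoli cells, where 29.5% of all genes were higher and 19.0% lower, biogenesis genes had a median of -0.04 (4 higher, 6 lower). Among them Nop56, a protein of the particles that modify ribosomal RNA, was at 75.9 and 122 CPM. Gar1, another such protein, was at 69.8 and 44.2 CPM. Elongation factors had 0.18 (1 higher, 1 lower) and the mTORC1 list -0.08 over 14 (4 higher, 3 lower). In the mTORC1 list Mtor was at 85.6 and 55.0 CPM and Mycn at 40.6 and 75.8 CPM. Cdkn1a was at 7.79 and 4.11 CPM there, so that its order was the reverse of that in undifferentiated spermatogonia. That difference between the classes was not tested.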

How the data were processed

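Whole testis was profiled as single cells in 2 libraries, 1 per genotype. The authors deposited raw UMI counts from Cell Ranger 7.1.0 (per the file headers); the genome build was mm10 (per the labels). The annotation release and whether intron reads were counted are not given in the sources used here. The matrices are unfiltered: cells were taken as barcodes of 1000 or more UMIs, 500 or more genes and no more than 20% mitochondrial UMIs. Scrublet (scanpy 1.11.5) scored doublets in each library. Its automatic threshold marked 0 knockout cells, and that of the control, applied to both libraries, removed 495 control cells (4.41%) and 275 knockout cells (2.53%). Profiles were brought to 10000 UMIs per cell, put on a log scale and reduced to 2000 variable genes (the 85 genes studied left out) and 30 principal components. Leiden clustering (leidenalg 0.10.2, 15 neighbours, resolution 1) was run on both libraries at once.

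A cluster took a class name from marker lists when 3 or more markers exceeded the other cells 1.5-fold and were detected in 20% or more of the cluster, the class with the highest mean standardised marker level going first. A list of genes shared by all germ cells was used only where no stage could be named, a choice made after seeing the data. Classes with 50 cells in both libraries were compared. UMIs were summed per class and library, given as a share or as CPM, and compared as a log2 ratio of knockout over control with 0.5 added to each count, for genes with at least 30 UMIs in the class. A gene was called at a log2 ratio of 0.32 or more from 0. Intervals are exact at 95% (Clopper-Pearson for shares, Poisson for levels, conditional binomial for ratios, scipy 1.17.1) and cover counting error only. The ratio script was tested on simulated data. With 1 library per genotype there was no test between genotypes. Free RNA was read from barcodes of 10 to 100 UMIs, and its largest possible share in a class from markers of other classes.

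Genes named are the variant pairs, Rplp0, Rplp1, Rplp2, Rpsa, Rpl5, Rpl11, Rps6, Rps14, Rps19, the 3 highest and 3 lowest ratios of each class among genes with at least 100 UMIs, the widest and narrowest ranges over classes, and genes among the 2 highest and 2 lowest of each related list. Genes named only for a count or a pattern were chosen after their values were seen. The genes studied, the lists and the tests were chosen with earlier results of these data known. Rps4l, a variant of Rps4x, is not among the genes listed for these libraries, so no value could be given for it. Gene positions and coding sequences came from GENCODE M21, which held 32235 of the 32285 gene identifiers, and start windows from RefSeq on GRCm38.p6. Alternatives were other cell filters, doublets kept, the 85 genes allowed in the clustering, resolution 2, a depth band, free RNA subtracted, nuclear totals, other fold and UMI minimums and centring on the median gene.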

Additional observations from a re-analysis of the deposited data

Results flagged for a closer look

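The log2 ratio of the summed ribosomal protein share was above 0 in 7 classes, at 0.029 in undifferentiated spermatogonia, 0.39 in differentiating spermatogonia, 0.36 in Sertoli cells, 0.12 in peritubular myoid cells, 0.015 in Leydig cells, 0.091 in interstitial stromal cells and 0.12 in macrophages. It was below 0 in endothelial cells, at -0.044. The classes stand out because their single pair of libraries pointed opposite ways. The difference between classes was not tested, since each rests on 1 library per genotype.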

How the results depend on the processing

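No paired analysis was possible because each genotype had 1 library, and for the same reason no replicate could be left out. Values are log2 ratios of the summed share, then genes called higher or lower in the knockout, and the cause of a shift was not tested. The share of all genes called under an alternative is given above in 2 cases only. These are undifferentiated spermatogonia of 5000 to 10000 UMIs and differentiating spermatogonia without cluster 20. The other counts have no such share beside them and cannot be read as particular to these genes. The sign turned in undifferentiated spermatogonia with at least 2000 UMIs and 1000 genes (-0.0027), at most 10% mitochondrial UMIs (-0.059) and cells of 5000 to 10000 UMIs (-0.18, 2 higher, 23 lower), and over all cells in that band (-0.18, 2 higher, 18 lower). The band gave Sertoli cells 0.54 and 72 higher. It left fewer than 20 cells in a library for differentiating spermatogonia, Leydig cells and endothelial cells, which were not read in it.

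At least 500 UMIs and 250 genes gave 0.070 (0 lower) in undifferentiated spermatogonia, 0.29 (0 lower) in differentiating spermatogonia and 0.38 in Sertoli cells. At least 2000 UMIs gave 0.37 and 0.41 in the last 2 and 0.15 over all cells. At most 10% mitochondrial UMIs gave 0.21 over all cells, 1.02 with 81 higher in differentiating spermatogonia and 0.43 with 1 lower in Sertoli cells. Doublets kept gave 0.15 over all cells, then 0.043 (0 lower), 0.40 and 0.40. Resolution 2 gave 1.28 (81 higher, 2 lower) in differentiating spermatogonia and 0.37 in Sertoli cells. At resolution 2 and at most 10% mitochondrial UMIs, part of the germ cells were named zygotene to pachytene spermatocytes, a class the main setting lacks. With at least 500 UMIs, 1722 control and 100 knockout cells were germ cells of no single stage. Differentiating spermatogonia thus held other cells in these settings than in the main one. Free RNA at the measured share gave 0.047, 0.40 (2 lower) and 0.47 (1 lower), and at 10% gave 0.035 (3 lower), 0.44 (2 lower) and 0.58 (69 higher, 1 lower). Nuclear totals gave 0.14 over all cells, then 0.0031, 0.36 and 0.37. At 1.5-fold there were 5 higher and 3 lower over all cells, 2 and 0 in undifferentiated and 14 and 0 in differentiating spermatogonia, and 14 higher in Sertoli cells. Relative to the median gene, 4 were lower over all cells and 31 higher in differentiating spermatogonia. With 100 UMIs per gene, 1 was lower in Sertoli cells. Without clusters of few UMIs, chosen after seeing the data, all cells gave 0.15, differentiating spermatogonia 0.19 (20 higher, 3 lower) and Sertoli cells 0.37.

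Pooled Sertoli cells stayed between 0.36 and 0.58 over all alternatives, and pooled differentiating spermatogonia between 0.19 and 1.28. No alternative took Sertoli cells of 1000 to 2000 UMIs alone, where the share was 5.44% in the control and 4.67% in the knockout. None of these alternatives compared the libraries within clusters, so the ranges do not cover the different cluster makeup. Within the 8 Sertoli clusters compared above the log2 ratio ran from -0.29 to 0.22. Shares of Rpl39l in its pair ran from 72.6% to 83.2% in control and from 57.5% to 65.8% in knockout undifferentiated spermatogonia. In differentiating spermatogonia they ran from 38.7% to 85.6% in the control and from 62.1% to 83.1% in the knockout, those of Rpl10l from 2.26% to 9.49% in the control, and those of Rpl22l1 from 10.6% to 23.7% and from 24.0% to 44.7%. Rps27l ran there from 25.4% to 45.9% in the knockout.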
